A study of Mus musculus with 6 samples.

Results

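Mtus2 and 9 genes of its partners at the growing end of microtubules were followed in single mouse oocytes at the germinal vesicle stage, when the nucleus is still intact and meiosis has not resumed. The 10 genes are Mtus1, Mtus2, Mapre1, Mapre2, Mapre3, Clasp1, Clasp2, Ckap5, Kif2c and Clip1, out of 25239 genes in the deposited count table. They were picked by name. Mtus2 was picked because its ratio of phthalate to water was high in these same libraries, so its ratio is a description and supports nothing further. The other 9 were picked as partners at the microtubule end. All 10 had a row in the table, and 8 of them passed the filter on low counts.

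The study compared oocytes of CD-1 mice, an outbred strain, after an injection of water or of a mixture of phthalate metabolites, breakdown products of plasticizers. The females were from 4 to 6 weeks of age. Per the labels' protocols the injection was made into oocytes still inside their cumulus cells, which were then kept in maturation medium with follicle-stimulating hormone at 200 mIU/mL, and oocytes at the germinal vesicle stage were collected. What the mixture held, and its dose, are not given in the sources used here, and both groups share the injection, the culture and the strain. Each group has 3 Smart-seq3 libraries, every one of them titled as an oocyte. No animal or culture is named for a library, and the protocol can also be read as a single oocyte behind each group, in which case the spread between libraries is technical. Each group therefore counts as 1 sample, no test was made, and the differences between the groups are without replicates.

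Microtubules are hollow polymers of tubulin that grow and shrink mainly at their plus ends. End-binding proteins recognise the growing end and carry other proteins to it. Among these, polymerases add tubulin, rescue factors stop shrinkage, and depolymerising kinesins take tubulin off. In the oocyte these activities build the meiotic spindle without centrioles once the nuclear envelope breaks down. A fully grown oocyte makes little new RNA and lives on stored messages, many of which wait untranslated for maturation.

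Libraries held from 252267 to 300917 gene counts, and 9 of 10 oocyte markers had a count in every library. Of 20 cumulus and granulosa markers, 11 were at 0 in all libraries. The 20 markers summed to between 13 and 39 counts in the water libraries and between 10 and 24 in the phthalate libraries, mostly from Nr5a2. Rn45s, the ribosomal RNA precursor, made up 2.02%, 2.32% and 2.35% of the water libraries and 3.54%, 2.89% and 3.38% of the phthalate libraries, and its part in the results was not tested beyond leaving it out of the totals, which left the log2 ratio of Mtus2 (phthalate over water) at 1.70. Even numbers made up from 68.0% to 71.1% of counts from 1 to 20, as happens where the 2 mates of each pair are counted apart. Intervals are therefore given on counts and, where it matters, on counts halved to read pairs. They cover counting error only.

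Mtus2 lies on chromosome 5 of GRCm38, at chr5:147957275-148316065 on the plus strand in the RefSeq gene table. GENCODE M21 lists 11 transcripts of it, 7 of them coding. The longest, of 7543 bases, begins at the first of 2 starts that have a RefSeq promoter entry. The second start lies 307897 bases downstream, in no exon of a transcript that begins earlier, and 5 of the 7 coding transcripts begin at or after it, without the early exons. The count table has 1 value per gene symbol, so reads from the long and the short transcripts are summed in every value below. The predicted genes Gm46928 and Gm10167 lie over Mtus2 in the RefSeq table and have no row in the count table. The 250 bases before each start are printed to show the 2 regions between which the counts do not distinguish. The first start, at 147957320, lies inside the RefSeq gene span, which begins at 147957275. The end of the first region, with its GC box, therefore lies within that span. They come from RefSeq (GRCm38.p6), run 5′ to 3′ on the plus strand, and have each match to the GC box in capitals.
Mtus2, first start, chr5:147957070-147957319: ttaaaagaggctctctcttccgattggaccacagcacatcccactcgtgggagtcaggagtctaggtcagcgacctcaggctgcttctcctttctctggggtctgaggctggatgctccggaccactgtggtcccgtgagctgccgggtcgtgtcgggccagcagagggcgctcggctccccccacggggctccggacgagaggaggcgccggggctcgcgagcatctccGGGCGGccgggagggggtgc
Mtus2, second start, chr5:148264967-148265216: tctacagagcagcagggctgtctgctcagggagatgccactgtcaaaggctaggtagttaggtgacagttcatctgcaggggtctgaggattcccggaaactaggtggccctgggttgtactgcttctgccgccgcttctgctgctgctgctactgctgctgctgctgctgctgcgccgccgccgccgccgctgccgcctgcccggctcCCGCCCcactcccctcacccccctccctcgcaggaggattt

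Both regions were rich in G and C, with 67.6% at the first start and 64.8% at the second, against a median of 52.4% over 32851 promoter entries. CpG dinucleotides numbered 20 and 13, against a median of 6. The GC box GGGCGG, searched on both strands, had 1 match in each region and occurred in 32.7% of all entries of this length. TATAAA had no match in either region (12.4% of all entries). The E-box CANNTG, the kind of site bound by helix-loop-helix factors, had no match at the first start and 1 at the second (66.2% of all entries). CCAAT had 1 match at the first start and none at the second (33.8% of all entries). A match is a match of letters and no evidence of binding.

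Mtus2 encodes a scaffold that rides on growing ends through end-binding proteins and binds the depolymerase made from Kif2c. Water libraries 1, 2 and 3 held 18, 42 and 12 counts of it, and phthalate libraries 1, 2 and 3 held 62, 121 and 39. Scaled by the library total to 1000000 (CPM), these were 66.8, 140 and 42.3 against 246, 410 and 142. The groups did not overlap, but they nearly touched: the lowest phthalate library stood next to the highest water library. Library 2 was the highest and library 3 the lowest of its group on either side, although nothing in the labels pairs the libraries by number. Library 2 was also the most deeply sequenced of each group, and the part of depth in this order was not tested.

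Summed over libraries, Mtus2 had 72 water and 222 phthalate counts, a log2 ratio of 1.70 (95% exact interval 1.31 to 2.10, and 1.14 to 2.28 on read pairs), or 3.24-fold. Within the water group alone the highest CPM was 3.30 times the lowest, and within the phthalate group 2.89 times. The ratio of the highest to the lowest library treated alike was thus about as large as the ratio of the group sums. The first compares extremes and the second compares sums, so they are unlike measures. Without water library 2 the log2 ratio was 2.35, and without phthalate library 2 it was 1.22. Only 1 of the 4644 genes that passed the filter had a higher ratio than Mtus2. Among the 2784 of these with a mean count of at least 20, Mtus2 was the highest and the next gene, Atp9a, stood at 1.34.

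**Figure D1:**
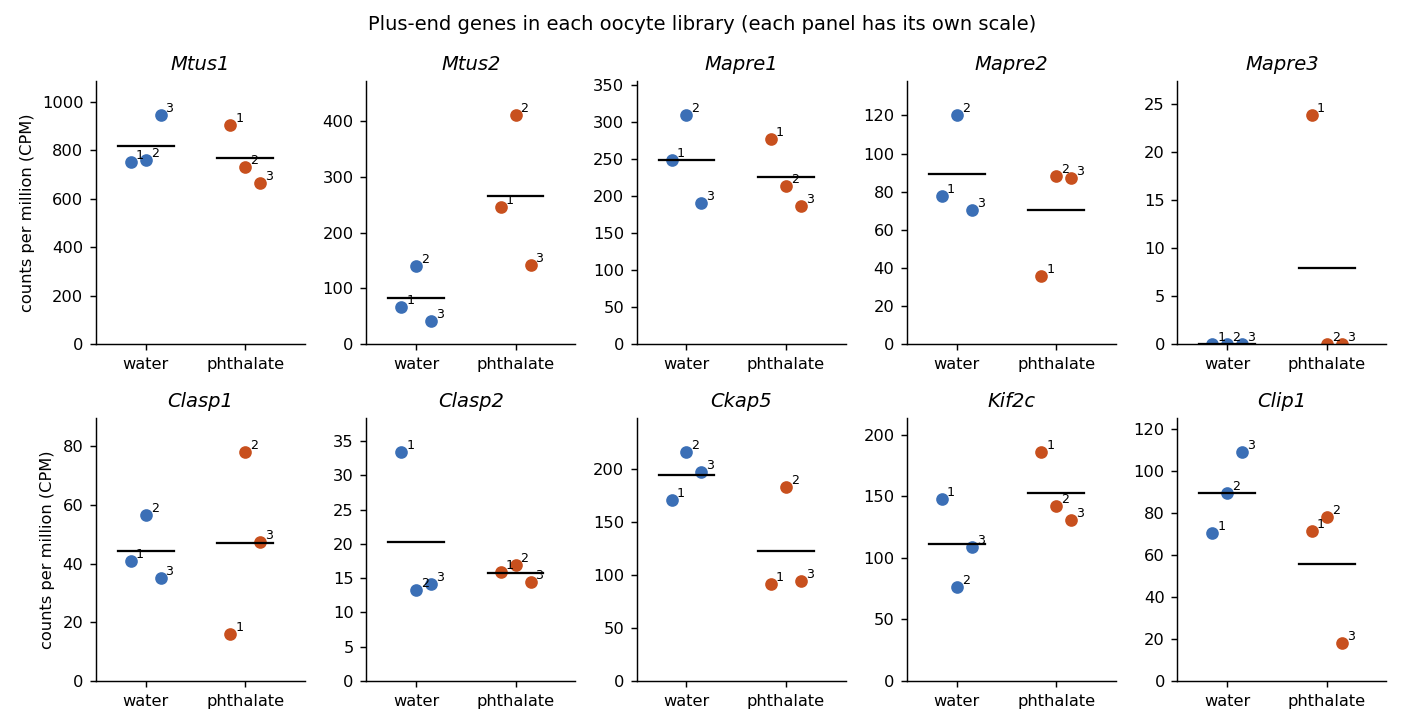
CPM (linear vertical axis from 0, a different scale in each panel) of the 10 plus-end genes in the 3 water and the 3 phthalate libraries. Points are libraries with their replicate number, and the horizontal line is the group mean. Mtus2 is the panel in which the groups do not overlap, from 42.3 to 140 CPM in water and from 142 to 410 in phthalate.

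The spread between libraries of a group was measured as a chi-square per degree of freedom on read pairs, with 2 degrees of freedom per group. A value of 1 is what sampling noise alone gives. Mtus2 stood at 7.07, with 4.46 within water and 9.68 within phthalate. Among 1062 genes (Mtus2 included) whose mean count lay within 1.5-fold of that of Mtus2 (49.0), the median was 1.22. Only 3 of these, Mtus2 among them, reached its value, and the others were Foxo3 at 8.07 and Nup35 at 7.62, named because of these values. The remaining members with a mean count of at least 20 were much closer to sampling noise, with 1.20 for Kif2c, 1.40 for Mapre2, 1.62 for Clip1, 1.68 for Mapre1 and 1.72 for Ckap5. Mtus1 had 2.33 at a higher count. Mtus2 therefore combined the highest ratio among genes of its count range with one of the widest spreads among libraries of the same group.

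**Figure D2:**
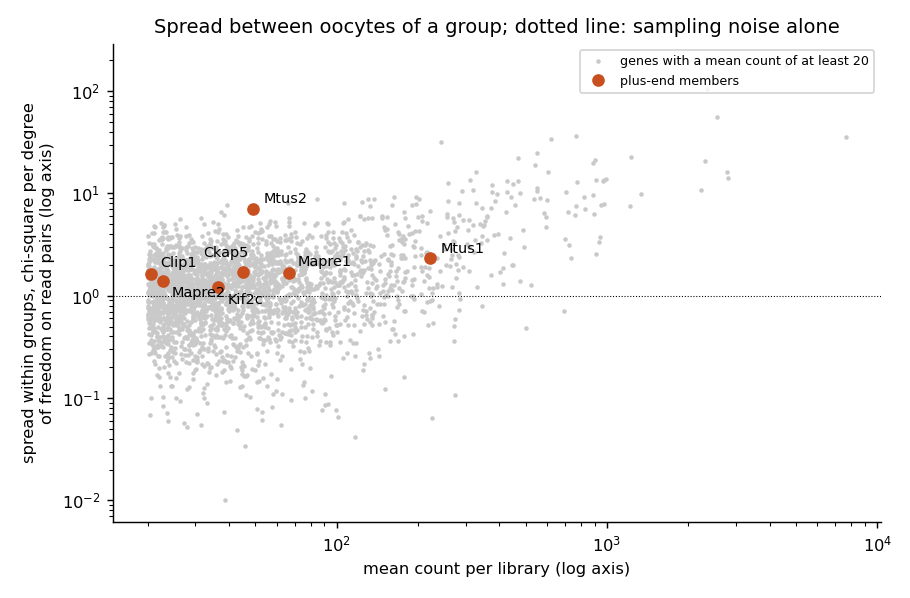
Spread between libraries within groups (vertical log axis, chi-square per degree of freedom on read pairs, with values under 0.01 drawn at 0.01) against the mean count per library (horizontal log axis) for 2784 genes, with 7 plus-end members in orange. The dotted line at 1 marks sampling noise alone; Mtus2 lies at 7.07, near the upper edge of genes of its abundance.

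Mtus1, the paralog of Mtus2, encodes proteins that bind microtubules and an angiotensin receptor, and lies at chr8:40990912-41133983 (RefSeq, GRCm38, as for the genes below). It was the most abundant member, with 202, 229 and 268 counts in the water libraries and 228, 216 and 183 in the phthalate libraries. Its CPM was 750, 761 and 944 against 904, 732 and 666, and the groups overlapped through phthalate library 1, while phthalate libraries 2 and 3 lay below every water library. The log2 ratio of the sums was -0.09 (-0.24 to 0.07). It was 0.04 without water library 3 and 0.03 with ERCC spike-ins, synthetic RNAs added in known amount, as the scale, so no direction is given. Water library 1 held 53.6% of the water group's ERCC counts.

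Because Mtus1 and Mtus2 are measured in the same library, their ratio needs no scaling between libraries. There were 0.0891, 0.183 and 0.0448 Mtus2 counts per Mtus1 count in the water libraries, and 0.272, 0.560 and 0.213 in the phthalate libraries. Every phthalate library lay above every water library on this measure, and the gap between the groups was wider in proportion than in CPM. Mtus2 was chosen for its phthalate to water ratio in these libraries, so the separation restates that choice and supports nothing further. Mtus2 made up 9.34% of the counts of the pair in the water group (95% exact interval 7.38 to 11.6, Clopper-Pearson) and 26.1% in the phthalate group (23.2 to 29.2). Mtus1 thus held most of the pair's counts in all 6 libraries. The ratio of the sums was 3.44 times higher in phthalate, 5.55 times without water library 2 and 2.39 times without phthalate library 2.

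**Figure D3:**
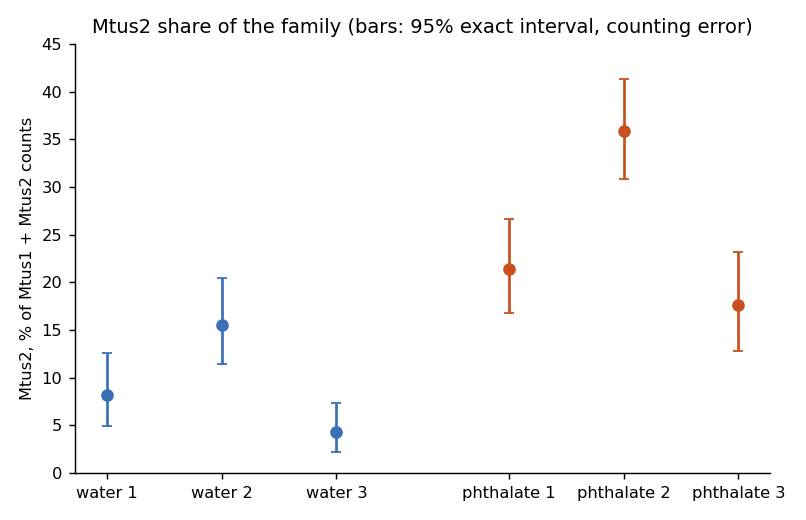
Share of Mtus2 in the summed counts of Mtus1 and Mtus2 (vertical axis, percent) in each of the 6 libraries, with 95% exact intervals for counting error as bars. Water libraries lie between 4.29% and 15.5%, and phthalate libraries between 17.6% and 35.9%, but the interval of water 2 (11.4% to 20.4%) overlaps those of phthalate 1 and phthalate 3.

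The end-binding proteins are the platform on which most other plus-end proteins sit. Mapre1 (chr2:153741287-153773317), the family's main and most studied member, had 249, 309 and 190 CPM in the water libraries and 277, 214 and 186 in the phthalate libraries. The ranges overlapped almost entirely, and the log2 ratio was -0.15 (-0.44 to 0.15), and 0.06 without water library 2. Mapre2 (chr18:23752333-23893861) had 77.9, 120 and 70.5 CPM against 35.7, 88.1 and 87.3. Phthalate library 1 was the low value there, while libraries 2 and 3 lay within the water range, and the log2 ratio was -0.31 (-0.83 to 0.20). Mapre3 (chr5:30814606-30866106) had 6 counts, all in phthalate library 1, and 0 in the other 5 libraries.

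The 0 of 854185 water counts allows a Mapre3 level of up to 3.51 CPM, against 7.30 CPM in the summed phthalate counts. The exact interval of the log2 ratio began at 0.31 on counts but at -1.20 on read pairs, of which the 6 counts make about 3. The phthalate value comes from 1 library, and Mapre3 did not pass the filter. Of the counts of the 3 end-binding genes, Mapre1 held 73.5% in water (68.1 to 78.5) and 73.9% in phthalate (68.0 to 79.2). The share of Mapre1 in the family thus differed by less than the counting error.

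Kif2c (chr4:117159633-117182624) encodes a kinesin that does not walk but removes tubulin from microtubule ends, and it is the partner that the Mtus2 protein brings there. It had 40, 23 and 31 counts in the water libraries and 47, 42 and 36 in the phthalate libraries, or 148, 76.4 and 109 CPM against 186, 142 and 131. Water library 1 lay inside the phthalate range, so the groups overlapped by that library. The log2 ratio was 0.48 (0.09 to 0.88), and on read pairs the interval reached from -0.09 to 1.06 and included 0. Leaving out 1 library gave log2 ratios from 0.27 to 0.72. Relative to Mapre1 in the same library, Kif2c stood at 0.597, 0.247 and 0.574 in the water libraries and at 0.671, 0.667 and 0.706 in the phthalate libraries. Those values did not overlap, and they were close to one another in the phthalate group. No counting interval was computed for these ratios, so the narrow gap between 0.597 and 0.667 was not set against counting error. Kif2c over Mapre1 was one of 8 within-library ratios computed, of which 3 separated the groups. The others were Mtus2 over Mtus1 and Mtus2 over Mapre1, which share the gene chosen for its ratio, so nothing is read from that count. How often such ratios separate the groups for other genes was not computed. Mtus2 over Kif2c overlapped, from 0.387 to 1.83 in water and from 1.08 to 2.88 in phthalate.

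Ckap5 (chr2:91526747-91620679) encodes the main microtubule polymerase, which adds tubulin at the plus end and helps to assemble spindle poles. Its counts were 46, 65 and 56 in the water libraries and 23, 54 and 26 in the phthalate libraries. In CPM these were 171, 216 and 197 against 91.2, 183 and 94.6. Phthalate libraries 1 and 3 lay well below the water range and phthalate library 2 lay inside it. The log2 ratio was -0.63 (-0.99 to -0.26, and -1.16 to -0.11 on read pairs), and it was -1.03 without phthalate library 2. The log2 ratio stayed below 0 with any other library left out. The gene F2 overlaps the end of Ckap5 in the RefSeq table and had 9 counts in all libraries together. Tacc3, which encodes the adaptor that anchors the polymerase on spindle microtubules, had 780 counts in water and 829 in phthalate.

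Clip1 (chr5:123577794-123684606) encodes a linker that binds growing ends and connects them to organelles and dynein. It had 70.5, 89.7 and 109 CPM in the water libraries and 71.4, 78.0 and 18.2 in the phthalate libraries. The low sum of the phthalate group came from library 3, with 5 counts, while libraries 1 and 2 lay within the water range. The log2 ratio was -0.67 (-1.23 to -0.13, and -1.48 to 0.11 on read pairs), and it was -0.30 without phthalate library 3 and -1.01 without phthalate library 2.

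Clasp1 (chr1:118389058-118609462) and Clasp2 (chr9:113740077-113919697) encode rescue factors, which bind the lattice near the end and turn shrinkage back into growth. Clasp1 had 40.8, 56.5 and 35.2 CPM in the water libraries and 15.9, 78.0 and 47.3 in the phthalate libraries. Phthalate library 1 lay below the water range, library 2 above it and library 3 inside it, and the log2 ratio of 0.15 (-0.53 to 0.83) turned to -0.42 without phthalate library 2. Clasp2 had between 4 and 9 counts per library, with 17 counts in water and 13 in phthalate, and did not pass the filter. A difference in Clasp2 was not detectable at this depth (-1.48 to 0.81).

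**Figure D4:**
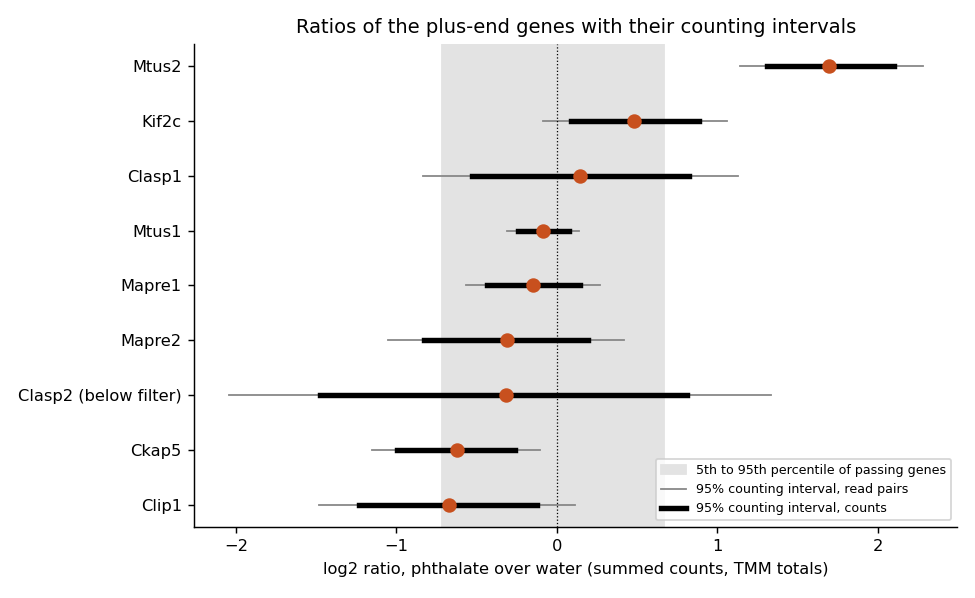
Log2 ratio of phthalate over water (horizontal axis) for 9 plus-end genes from summed counts, with 95% exact counting intervals on counts (thick) and on read pairs (thin). The grey band holds the 5th to the 95th percentile of the 4644 passing genes, -0.72 to 0.67; Mtus2 at 1.70 lies outside it and the other 8 points inside. Mapre3 is not drawn, as its water sum is 0.

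Of the 8 members that passed the filter, 3 had a log2 ratio above 0 and 5 below 0, against 51.2% and 48.8% of the 4644 passing genes. Their median log2 ratio was -0.12, and -0.15 for the 7 without Mtus2, against 0.01 over all 4644 passing genes. Mtus2 was the only member past 2-fold, a distance that 1.14% of passing genes reached upwards in phthalate, 1.64% downwards and 2.78% either way. It was also the only member whose groups did not overlap in CPM, as was the case for 4.52% of passing genes with phthalate higher, 5.49% with phthalate lower and 10.0% either way. Mtus2 was chosen on this contrast, so nothing is read from its count, and the other 7 passing members had 0 of either kind. Where the mean count was 20 or more, a range that holds 7 of the members, 0.216% were past 2-fold higher, 0.395% lower and 0.611% either way, and the groups were apart in 4.42%, 5.64% and 10.1%. In that range 52.7% of ratios lay above 0 and 47.3% below. With 1 library left out of a group, the passing genes past 2-fold numbered from 60 to 113 higher, against 53 with all libraries, and from 85 to 143 lower, against 76. With ERCC counts as the scale they numbered 84 higher and 49 lower. The counting interval lay clear of 0 for 4 of the 8 members (Mtus2, Ckap5, Kif2c and Clip1), against 22.7% of passing genes and 25.7% of those at a mean count of 20 or more. On read pairs it did so for Mtus2 and Ckap5, 2 of the 8, against 9.19% of passing genes. Without Mtus2, which was chosen for its ratio, these were 3 of 7 on counts and 1 of 7 on read pairs.

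Levels of different genes were compared as CPM per kilobase of the longest coding GENCODE transcript, averaged over the libraries of a group. In the water libraries Mtus1 came first at 125 (114 to 144 over libraries). Kif2c at 39.2 (26.9 to 52.2), Mapre1 at 34.0 (25.9 to 42.1) and Ckap5 at 29.2 (25.6 to 32.4) followed, with ranges that overlapped one another. Mapre2 at 22.2 (17.5 to 29.7) overlapped all of these. Clip1 at 14.6 (11.5 to 17.8) and Mtus2 at 11.0 (5.61 to 18.5) overlapped each other and just reached the lowest Mapre2 library, and Clasp1 at 4.30 (3.43 to 5.50) and Clasp2 at 3.61 (2.37 to 5.95) came last among the detected genes. Mtus1 thus stood clear of every other member, while neighbours further down the order did not differ beyond their spread as far down as Mtus2. The lowest Mtus2 library at 5.61 lay just above the highest Clasp1 library at 5.50 and below the highest Clasp2 library at 5.95.

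In the phthalate libraries Mtus2 took place 3 in this order of level, against place 7 in water, with 35.3 (18.8 to 54.4) CPM per kilobase. This move restates the ratio for which Mtus2 was chosen. The range of Mtus2 in phthalate overlapped those of Kif2c at 53.9 (46.1 to 65.6) and Mapre1 at 30.7 (25.3 to 37.8). It also overlapped those of Ckap5 at 18.4 (13.7 to 27.5) and Mapre2 at 17.5 (8.86 to 21.9). Mtus1 at 117 (102 to 138) remained far above all of them. With the union of all exons as the length, Mtus2 went from place 7 to place 4. These levels take the length of the longest Mtus2 transcript, although the shortest coding one has 585 bases.

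The 5 genes whose log2(CPM + 1) correlated best with that of Mtus2 over the 6 libraries, among 2783 others with a mean count of at least 20, were Nup93 (Pearson r = 0.98), Thsd7a (0.95), Pigq (0.94), Hsp90ab1 (0.94) and Dnajb11 (0.93). Nup93 encodes a scaffold protein of the nuclear pore, and its CPM was 63.1, 93.0 and 63.4 in the water libraries and 131, 156 and 94.6 in the phthalate libraries. These r values describe 6 points that share libraries and the group difference, and 20 of the 2783 genes reached 0.9. At most 1 of the 5 genes stayed among the best 5 when a library was left out or ranks were used. Of the plus-end members, Kif2c had the highest r with Mtus2 (0.32), Mapre1 had 0.23, and Mapre2, Clip1, Ckap5 and Mtus1 were between -0.12 and -0.33.

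Other genes of microtubule ends and lattices were taken from 5 lists with 98 genes in all, of which 61 passed the filter. In these, 30 had a log2 ratio above 0 (called higher below) and 31 below 0 (called lower), with a median of -0.05. There were 3 past 2-fold, Katnal1, Cdk5 and Sgo1, and 5 whose groups did not overlap in CPM, beside 2.78% and 10.0% of all passing genes. Katnal1 and Sgo1 passed the filter only through the group where they are high, so nothing is read from these counts. The plot of ratio against abundance shows most of them around 0 at every count.

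**Figure D5:**
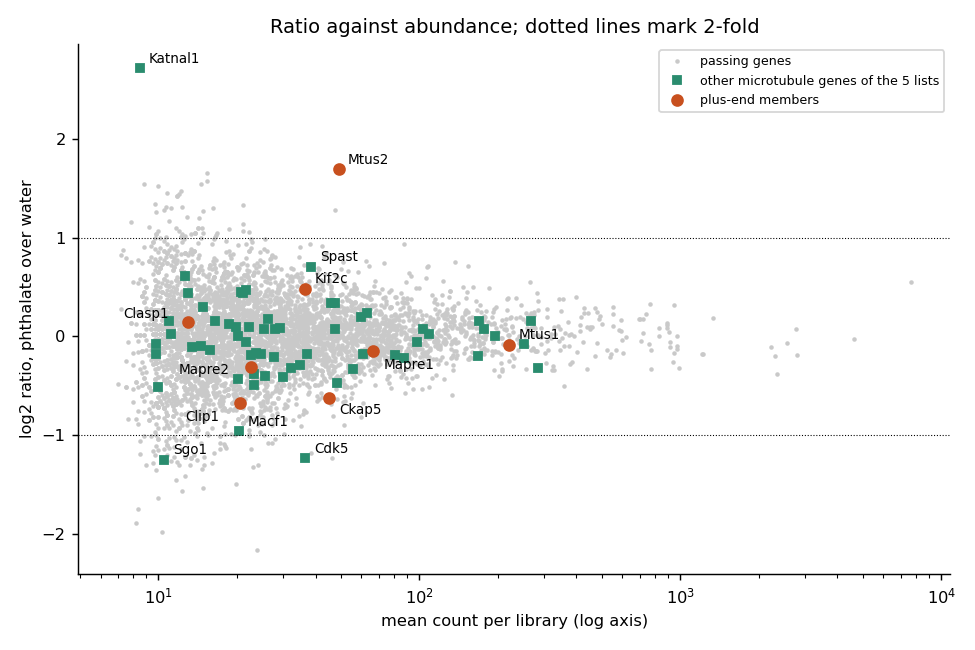
Log2 ratio of phthalate over water (vertical axis) against mean count per library (horizontal log axis) for 4644 passing genes in grey, 61 other microtubule genes in green and 8 plus-end members in orange. Dotted lines mark 2-fold. Mtus2 at 1.70 and Katnal1 at 2.72 are the highest microtubule genes, and Cdk5 at -1.24 and Sgo1 at -1.25 the lowest.

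Other proteins that track plus ends, 29 genes with 24 passing, had a median log2 ratio of 0.04, with 13 higher, 11 lower and 0 past 2-fold. Tacc3 was the most abundant. Macf1, which encodes a giant linker of microtubules and actin, had the lowest ratio among those with a mean count of at least 20. It had 119, 56.5 and 116 CPM in the water libraries and 75.3, 10.2 and 65.5 in the phthalate libraries, a log2 ratio of -0.96 (-1.55 to -0.40), and the groups overlapped through water library 2. Leaving out phthalate library 2 gave -0.41, and leaving out phthalate library 1 gave -1.35, past 2-fold, as did leaving out water library 2 (-1.24) or phthalate library 3 (-1.29). Cdk5rap2, which encodes an activator of microtubule nucleation, had the highest in the same range of counts at 0.47 (-0.05 to 1.00), which was 1.02 without water library 1.

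Depolymerising and severing proteins numbered 19 genes with 7 passing, with a median of 0.03. Katnal1, which encodes an ATPase of the katanin family that cuts microtubules, had 6, 0 and 1 counts in the water libraries and 14, 16 and 14 in the phthalate libraries. Its log2 ratio of 2.72 (1.56 to 4.12) was the single value above that of Mtus2 among all passing genes. It was 4.97 without water library 1, which leaves 1 water count, and 2.11 without water library 2. Katnal1 had a mean count of 8.50, passed through the phthalate group alone, and is named here because of its value. Spast, which encodes the severing enzyme spastin, was the most abundant of the list, with 20, 46 and 24 counts against 47, 63 and 30. Phthalate libraries 1 and 2 lay above all water libraries and library 3 among them, and its log2 ratio was 0.71 (0.32 to 1.11), or 1.13 without water library 2. Katna1, the catalytic katanin subunit, stood at -0.41 (-0.86 to 0.03). The ratios of these severing genes thus lay on both sides of 0.

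Lattice-binding and bundling proteins, 20 genes with 9 passing, had a median of -0.05 with 4 higher and 5 lower. The most abundant was Prc1, which encodes a crosslinker of antiparallel microtubules, with 598 water and 570 phthalate counts. At a mean count of 20 or more, Tpx2, which encodes a spindle assembly factor, was the lowest at -0.33 (-0.65 to -0.01), and Ckap2 the highest at 0.45 (-0.09 to 0.99). On read pairs the interval of Tpx2 included 0. The Ckap2 value was 1.11 without water library 1 and -0.06 without phthalate library 3. Minus-end and pole proteins, 19 genes with 13 passing, had a median of -0.18 with 5 higher and 8 lower. Aspm, which encodes a minus-end protein of spindle poles, had 966 counts in water and 737 in phthalate, a log2 ratio of -0.32 (-0.46 to -0.18) that was -0.06 without phthalate library 2 and -0.61 without phthalate library 3. Haus1 and Haus4, both of the augmin complex that starts new microtubules on old ones, stood at -0.50 (-1.01 to 0.01) and 0.34 (-0.01 to 0.68). Haus1 and Camsap1 were the 2 genes of this list whose groups did not overlap, with phthalate lower in each, beside 5.49% of all passing genes in that direction. Camsap1, named because of this, encodes a minus-end protector and had a log2 ratio of -0.47.

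Kinases and partners that act on Kif2c or on end-binding proteins were 12 genes with 9 passing, a median of -0.08, 4 higher and 5 lower. Cdk5, which encodes a kinase known to phosphorylate microtubule proteins in neurons, had 54, 48 and 54 counts in the water libraries and 30, 15 and 18 in the phthalate libraries. Its CPM was 200, 160 and 190 against 119, 50.8 and 65.5, every phthalate library lay below every water library, and the log2 ratio was -1.24 (-1.68 to -0.80). It was -1.62 without phthalate library 1 and, short of 2-fold, -0.96 without phthalate library 2. In contrast to Mtus2, the 3 water values of Cdk5 were close together. Sgo1, which encodes a protector of cohesin at centromeres, had 11, 16 and 18 counts against 8, 8 and 2, a log2 ratio of -1.25 (-2.13 to -0.43), which was -0.88 without phthalate library 3. It is named because of its value, had a mean count of 10.5 and passed through the water group alone. Birc5 and Incenp, of the chromosomal passenger complex that carries the Aurora kinase acting on Kif2c, stood at -0.08 (-0.23 to 0.07) and 0.24 (-0.06 to 0.54).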

How the data were processed

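Per the submitters' processing notes, the build was mm10 and the tools were cutadapt, Trimmomatic, HISAT2 and DESeq2, named without versions or roles. The counting tool, the annotation and the use of strand are not given in the sources used here. The deposited values are whole-number counts, 1 row per symbol, for 25239 genes and 92 ERCC spike-ins, which were kept out of totals.

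Genes were kept by edgeR's filterByExpr (edgeR 4.0.16, R 4.3.3, minimum count 10, minimum total 15). A gene's 3 counts within a group were added and divided by the sum of the TMM-scaled library totals. No pseudocount entered the log2 ratio (phthalate over water), and a group at 0 was given a floor of 3 counts over its sum. Intervals are exact (Clopper-Pearson, 95%). The functions were checked on simulated data. CPM used plain library totals (252267 to 300917), and transcript lengths came from GENCODE M21 (GRCm38). RefSeq promoter entries were found for 7 of the 10 members.

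The alternatives were other scalings (library totals, DESeq2 1.42.0 size factors, totals without Rn45s, the ribosomal RNA precursor, and ERCC counts), no filter, mean CPM and leaving out each library. The members and lists were chosen with earlier results of these data known. Named from the lists were the most abundant gene, the highest and the lowest ratio at a mean count of at least 20, and genes past 2-fold at that count. Exceptions are stated. The use of ERCC counts and the within-library ratios were added after the data were seen.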

Additional observations from a re-analysis of the deposited data

How the results depend on the processing

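Leaving out 1 library gave log2 ratios of Mtus2 from 1.22 (without phthalate library 2) to 2.35 (without water library 2). Since the groups do not overlap, its sign could not change. The other scalings, the absence of a filter and the mean of CPM gave 1.68 to 1.81. ERCC scaling raised every log2 ratio by 0.115, but it shifted them by -0.43 without water library 1, which holds 53.6% of the water ERCC counts, so values on this scale rest on that library. The median of the passing members ranged from -0.25 to 0.02 over 12 alternatives, with a change of sign in 2, and each of the 5 list medians changed sign in at least 1. The genes past 2-fold numbered 53 higher and 76 lower among the 4644 passing genes, and 84 and 49 with ERCC scaling, which shifts every ratio alike. Without a filter they numbered 982 higher and 949 lower, drawn from a larger set, as 12804 genes had a count. Their share of that set was not computed. Among passing genes they numbered from 60 to 113 higher and from 85 to 143 lower with 1 library left out. The cause of the change with a library left out was not tested. Besides Mtus2, the named genes with an alternative outside their counting interval were Ckap5, Katnal1, Spast, Ckap2, Cdk5rap2, Tacc3 and Aspm, each with 1 library left out. Depth limits the rarest members most: the interval of Clasp2, with 17 and 13 counts, ran from -1.48 to 0.81. No paired analysis was possible because the values come from no test, so there was no model to hold the replicate number as a block. The labels give the libraries of the 2 groups the same numbers without naming an animal, culture or day that they share. Set side by side by number, Mtus2 CPM in water and phthalate was 66.8 and 246, 140 and 410, and 42.3 and 142. Phthalate was higher at each number, as it must be where the groups do not overlap. Whether the shared order of the libraries comes from a pairing was not tested.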
